A study of Mus musculus with 4 samples.

Results

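The genes described here encode the transcription factor p53 (Trp53), its ubiquitin ligase Mdm2, and 4 inhibitors of cyclin-dependent kinases (CDKs), namely p21 (Cdkn1a), p27 (Cdkn1b), p18 (Cdkn2c) and p19 (Cdkn2d). They were chosen by name: every spot that is not a control and carries one of the 6 gene names was used, in both channels of all 4 arrays. This gave 11 probes on 47 spots, of 41174 gene probes on 43379 spots of the array. Of the 11 probes, 10 were bright enough to be tested, as were 24104 of all probes.

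The study asked how interleukin 18 (IL-18), a cytokine of the interleukin 1 family, changes the transcripts of mouse mucosal mast cells (MMC) that had been differentiated in culture. Each of 4 arrays was 1 biological replicate and held 2 RNAs, IL-18 stimulated MMC labelled with the dye Cy5 and the unstimulated MMC of the same pair labelled with Cy3. The strain and age of the mice, the culture conditions, and the dose and duration of IL-18 do not appear in the labels, nor does whether the replicates came from separate animals. The p-values therefore measure the spread between these 4 pairs only. No array had the dyes swapped, so a difference between the dyes that belongs to a probe cannot be told apart from the effect of IL-18. In a bulk culture, fewer cells of a type and less RNA per cell cannot be told apart either.

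p53 is held at low levels by Mdm2, which marks it for destruction, and DNA damage or other stress frees it to act as a transcription factor. Its targets include Cdkn1a and Mdm2 itself, so that p53 raises both a brake on the cell cycle and its own inhibitor. p21 and p27 belong to the Cip/Kip family, which binds complexes of cyclins with CDKs, whereas p18 and p19 belong to the INK4 family, which binds CDK4 and CDK6 and keeps them from D-type cyclins. Mast cells stay able to divide in culture under growth factors such as interleukin 3, and CDK inhibitors are among the proteins that limit such division.

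Between 49.9% and 54.0% of gene spots were well above background in Cy3 and between 57.9% and 62.7% in Cy5, none was saturated, and 12 to 29 spots per array were flagged as outliers by the scanner software. The weights that limma gives arrays by how closely their ratios follow the common pattern were 0.541, 2.47, 1.96 and 0.382 for replicates 1 to 4, so replicates 1 and 4 followed it less closely. The log2 ratios of replicate 1 correlated with those of the other arrays at Pearson r = 0.619 to 0.761 across tested probes, against 0.842 to 0.906 among replicates 2, 3 and 4. These are correlations across probes, which are not independent replicates. All 9 mast cell markers were above background in both channels of every array, and 5 of them (Fcer1a, Cpa3, Mcpt1, Gata2 and Cma1) were called higher with IL-18. Their summed level ranged from 537900 to 615281 in Cy3 and from 751961 to 886323 in Cy5. All 5 macrophage markers were also above background, with 1 (Adgre1) called higher, and their sum was 73419 to 82018 in Cy3 and 76036 to 86972 in Cy5. This sum was nearly all Lyz2, whose mean log2 level in Cy3 was 16.18. The other macrophage markers ranged from 7.74 (Mrc1) to 9.97 (Adgre1) in Cy3. Both basophil markers were present, with Mcpt8 called higher, and their sum was 983 to 1936 in Cy3 and 1266 to 2394 in Cy5. Of 5 T cell, 4 B cell, 4 neutrophil and 4 eosinophil markers, 1, 1, 0 and 1 were above background in both channels of every array, and the neutrophil genes Elane and Camp and the eosinophil genes Prg2 and Epx were above background on no array. The part of these markers in the results below was not tested. Nfkbia, the inhibitor of NF-kB that NF-kB itself induces, rose by 2.16 on the log2 scale (SD 0.17, n = 4, limma adjusted p = 2.26e-04), and Tnfaip3, another NF-kB target, rose by 0.76 (SD 0.077, n = 4, adjusted p = 6.65e-04).

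Values below are log2 ratios of IL-18 stimulated over unstimulated cells after loess normalization within each array, given as a mean with its SD over 4 arrays. A level is the log2 intensity of 1 channel after these steps and a further quantile normalization of mean brightness between arrays (Aquantile). That step leaves the ratios unchanged, and comparisons of levels between arrays depend on it. The marker sums above come from such levels on the unlogged scale. A probe was called higher or lower where limma's adjusted p over all tested probes was under 0.05. Of the 10 tested probes of these genes, 4 were called higher and 2 lower. Over all tested probes 18.1% were called higher and 16.1% lower. The higher calls were Cdkn1a, 1 of 2 Trp53 probes and both Cdkn2c probes, and the lower calls were 1 of 2 Mdm2 probes and 1 of 2 tested Cdkn1b probes. No tested probe of Cdkn2d was called. With so many probes called on the whole array, these counts alone do not set the genes apart from it.

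**Figure D1:**
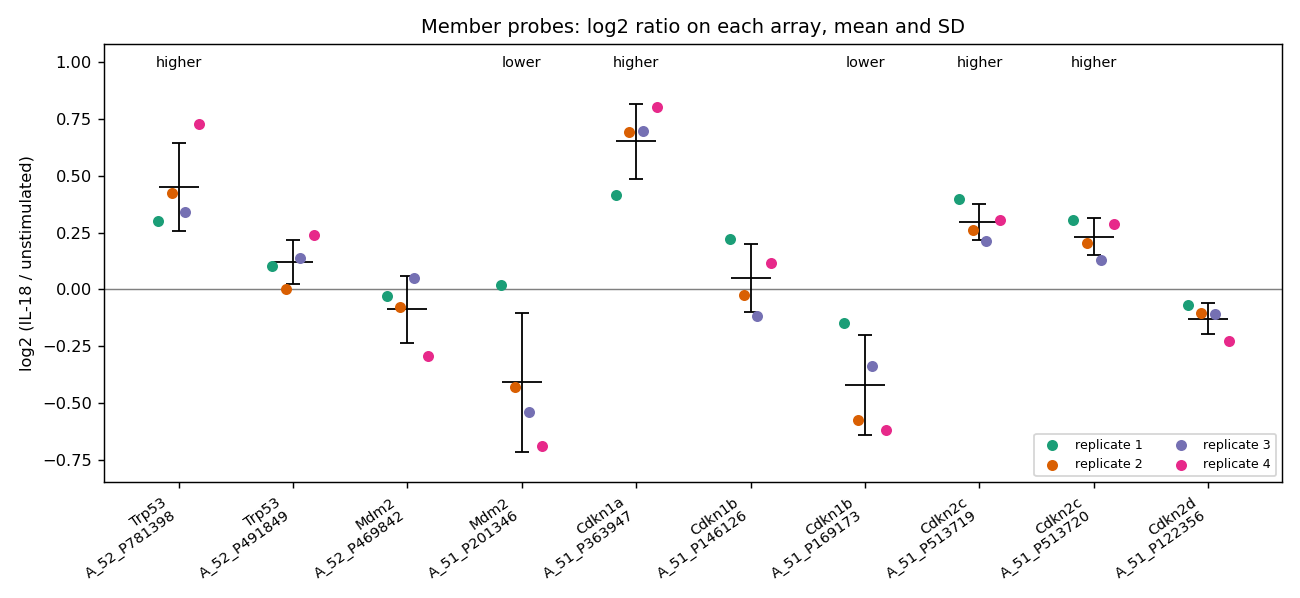
Log2 ratio of IL-18 stimulated over unstimulated cells for each tested probe of the 6 genes, with 1 point per array and a bar for the mean with its SD over 4 arrays. The 4 Cdkn1a values lie between 0.41 and 0.80, while probes of Trp53, Mdm2 and Cdkn1b differ within a gene.

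Trp53 was measured by 2 probes that gave different sizes of change. Probe A_52_P781398, a single spot annotated to NM_011640, had levels of 9.85, 10.39, 10.34 and 10.28 in the unstimulated cells of replicates 1 to 4. The levels in the stimulated cells were 10.16, 10.81, 10.68 and 11.01. Each stimulated sample was above its own control, although the stimulated level of replicate 1 lay within the range of the controls. The log2 ratios were 0.30, 0.43, 0.34 and 0.73, with a mean of 0.45 (SD 0.19, SE 0.076, n = 4), a 1.37-fold rise with an adjusted p of 0.00763 and a 95% interval from 0.27 to 0.63. Within the first slide (replicates 1 and 2) the mean was 0.36 and within the second (replicates 3 and 4) it was 0.53. Without replicate 2 the mean was 0.46 and the adjusted p 0.0504, so the call was lost.

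The other Trp53 probe, A_52_P491849, is printed at 10 places on each array. Its levels were 9.34, 9.42, 9.26 and 9.14 in unstimulated and 9.44, 9.42, 9.39 and 9.38 in stimulated cells, and these ranges overlapped. The ratios of 0.10, 0.0016, 0.14 and 0.24 averaged 0.12 (SD 0.097, n = 4), with an interval from -0.0018 to 0.24 and an adjusted p of 0.110, and it was not called. The log2 ratio of A_52_P781398 exceeded that of A_52_P491849 by 0.33 (SD 0.15, n = 4), and it was higher on 4 of 4 arrays. The exact two-sided sign-flip test gave p = 0.125, the smallest that 4 arrays allow. Where in the transcript each probe lies was not analysed here.

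The Trp53 promoter window (300 bases, from 250 before to 50 after the start in RefSeq, assembly GRCm38.p6) is shown in part because it was the only window of the 6 genes with an exact match to GGGACTTTC, letters of a classical NF-kB site, on either strand. The stretch lies at chr11:69580259-69580368 on the plus strand, from 100 bases before to 10 after the start, with the match in capitals.
Trp53: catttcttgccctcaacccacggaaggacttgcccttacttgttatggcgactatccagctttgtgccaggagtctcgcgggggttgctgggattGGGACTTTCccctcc
The match begins 5 bases before the start and ends 4 bases after it. This motif was found in 116 of 32817 promoter windows of the same length, or 0.353%. It overlaps a reverse match to the CCAAT box, CCAAT, which begins 8 bases before the start. A match of letters is a description of the sequence and not evidence of a bound site.

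Mdm2 encodes the ligase that ubiquitinates p53 and whose own gene is a p53 target. Its probe A_52_P469842 had levels of 11.78, 12.16, 12.07 and 12.35 in unstimulated and 11.76, 12.08, 12.12 and 12.05 in stimulated cells. These ranges overlapped, and the log2 ratios of -0.03, -0.08, 0.05 and -0.29 averaged -0.09 (SD 0.15, n = 4). The probe was not called (adjusted p = 0.313), and the interval ran from -0.24 to 0.064.

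The replicated Mdm2 probe, A_51_P201346, had levels of 9.87, 10.13, 10.16 and 10.24 in unstimulated cells and 9.89, 9.71, 9.62 and 9.55 in stimulated cells. In replicate 1 both cultures gave nearly the same level, whereas in replicates 2, 3 and 4 the stimulated cells were lower. The log2 ratios were 0.02, -0.43, -0.54 and -0.69, with a mean of -0.41 (SD 0.31, SE 0.11, n = 4) and a 95% interval from -0.67 to -0.15. That is 1.33-fold lower with an adjusted p of 0.0305, lower in 3 of 4 pairs. The call was lost without replicate 2 (adjusted p = 0.122), without replicate 3 (0.121) or without replicate 4 (0.0675). The mean was -0.20 within the first slide (adjusted p = 0.197) and -0.61 within the second, so its size depended on which arrays were used. The ratio of A_52_P469842 exceeded that of A_51_P201346 by 0.32 (SD 0.27, n = 4), on 3 of 4 arrays (exact two-sided sign-flip p = 0.25, where 4 arrays allow none below 0.125).

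Cdkn1a, which encodes p21, the Cip/Kip inhibitor best known as a p53 target, had the largest mean ratio and the lowest adjusted p of the 10 tested probes. It has a single probe, A_51_P363947 (NM_007669), printed at 10 places. Before any correction its mean signals were 1782, 1543, 1311 and 1177 in unstimulated cells and 4795, 4613, 4273 and 4250 in stimulated cells of replicates 1 to 4. Over all gene spots the mean signal was also higher in Cy5, at 2968 to 3737 against 1156 to 1385 in Cy3. The uncorrected gap is therefore not the size of the change in Cdkn1a. After normalization the unstimulated levels of Cdkn1a were 11.14, 11.01, 11.04 and 10.85 and the stimulated levels 11.56, 11.71, 11.74 and 11.65. The groups did not overlap, and the stimulated samples spread less among themselves (SD 0.08) than they differed from the controls. The log2 ratios of 0.41, 0.69, 0.70 and 0.80 averaged 0.65 (SD 0.17, SE 0.068, n = 4), a 1.57-fold rise with an interval from 0.49 to 0.81 and an adjusted p of 0.00192. Replicate 1 showed the smallest rise. The mean was 0.55 within the first slide and 0.75 within the second, and the call held when any 1 array was left out.

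Cdkn1a has 2 promoter windows in RefSeq. The upstream one is shown because it alone, among the 8 windows of the 6 genes, holds a pair of p53 core letters, searched as CATG followed after any 6 bases by CATG, which reads the same on both strands. The stretch is chr17:29090879-29090978 on the plus strand, the 100 bases before that start, with the match in capitals. The second stretch, chr17:29093649-29093768 on the plus strand, covers the 120 bases before the downstream start and is shown with its matches to the GC box GGGCGG in capitals.
Cdkn1a upstream start: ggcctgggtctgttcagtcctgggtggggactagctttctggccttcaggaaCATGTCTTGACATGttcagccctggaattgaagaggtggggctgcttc
Cdkn1a downstream start: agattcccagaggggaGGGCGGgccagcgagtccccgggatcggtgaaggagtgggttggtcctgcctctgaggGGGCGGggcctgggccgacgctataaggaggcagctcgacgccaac
The p53 pair begins 48 bases before the upstream start. It was found in 233 of 32817 windows, or 0.71%, while the GC box was found in 35.6%. Neither Cdkn1a window holds GGGACTTTC. Of the other motifs searched on both strands, the FoxO letters GTAAACA (3.65% of all windows) were found only in the Mdm2 window, the E-box CACGTG (7.15%) in Trp53 and in 1 of 2 Cdkn2c windows, and CCAAT (37.4%) in windows of all genes except Cdkn1a. The array cannot tell from which start the measured transcripts came, since a single probe reads the gene.

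**Figure D2:**
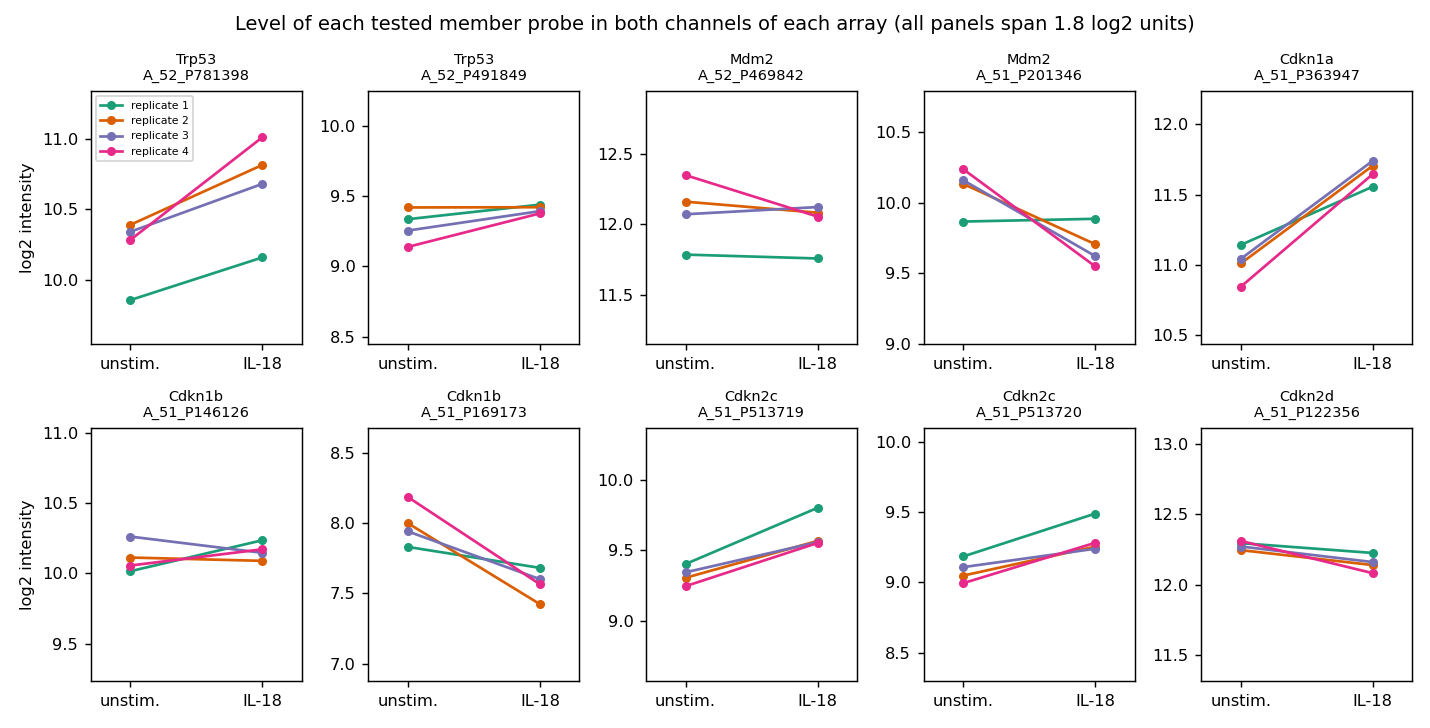
Log2 level of each tested probe of the 6 genes in unstimulated (Cy3) and IL-18 stimulated (Cy5) cells, with lines joining the 2 samples of an array. For Cdkn1a the stimulated levels (11.56 to 11.74) all lie above the unstimulated ones (10.85 to 11.14), while for Mdm2 A_51_P201346 replicate 1 is flat and the other 3 fall; levels of different probes are not comparable.

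Cdkn1b encodes p27, the Cip/Kip inhibitor whose level is set largely by protein destruction through Skp2. It has 3 probes, and they did not give the same picture. Probe A_51_P146126, which the array annotates to the cDNA AK169586, had levels of 10.01, 10.11, 10.26 and 10.05 in unstimulated and 10.23, 10.09, 10.15 and 10.17 in stimulated cells, and these overlapped. The ratios of 0.22, -0.02, -0.12 and 0.12 averaged 0.05 (SD 0.15, n = 4), with an interval from -0.10 to 0.20 and an adjusted p of 0.565.

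Probe A_51_P169173 (NM_009875), printed at 10 places, had levels of 7.83, 8.0, 7.94 and 8.18 in unstimulated cells and 7.68, 7.42, 7.60 and 7.57 in stimulated cells. The groups did not overlap, and every pair moved down. The ratios of -0.15, -0.57, -0.34 and -0.62 averaged -0.42 (SD 0.22, SE 0.083, n = 4), 1.34-fold lower with an interval from -0.62 to -0.22 and an adjusted p of 0.0123. The mean was -0.36 within the first slide and -0.48 within the second. Without replicate 2 the adjusted p was 0.0753, and the call was lost. This probe was dim: its uncorrected signal was 146 to 198 in Cy3 and 142 to 174 in Cy5, over local backgrounds of 25.6 to 28.6 and 40.2 to 41.5. The size of its change moved with the background correction, from -0.42 to -0.59 with no offset and to -0.87 with the log ratio that the scanner software computed.

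The third Cdkn1b probe, A_52_P673863, was not well above background in either channel on any of the 4 arrays and was not tested. The ratio of A_51_P146126 exceeded that of A_51_P169173 by 0.47 (SD 0.22, n = 4), on 4 of 4 arrays (exact two-sided sign-flip p = 0.125, the smallest possible).

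Cdkn2c encodes p18, an INK4 inhibitor of CDK4 and CDK6. Its 2 probes, each a single spot, gave nearly the same values. Probe A_51_P513719 (NM_007671) had levels of 9.40, 9.30, 9.34 and 9.24 in unstimulated and 9.80, 9.57, 9.56 and 9.55 in stimulated cells, with no overlap. The ratios of 0.40, 0.26, 0.21 and 0.31 averaged 0.30 (SD 0.079, SE 0.047, n = 4), a 1.23-fold rise with an interval from 0.18 to 0.41 and an adjusted p of 0.00660. Probe A_51_P513720 (U19596) had levels of 9.18, 9.05, 9.11 and 8.99 in unstimulated and 9.49, 9.25, 9.24 and 9.28 in stimulated cells, again with no overlap. Its ratios were 0.30, 0.21, 0.13 and 0.29, with a mean of 0.23 (SD 0.080, n = 4), an interval from 0.12 to 0.35 and an adjusted p of 0.0138. Both probes rose in 4 of 4 pairs, and replicate 1 had the largest rise in each. Within the second slide alone the values were 0.26 (adjusted p = 0.0645) and 0.21 (0.125), which lost the call, and without replicate 2 the call of A_51_P513720 was lost too (0.24, adjusted p = 0.0739). The probes differed by 0.064 (SD 0.033, n = 4; exact two-sided sign-flip p = 0.125), and A_51_P513719 gave the higher ratio on 4 of 4 arrays.

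Cdkn2d encodes p19, another INK4 inhibitor of CDK4 and CDK6. Its probe A_51_P122356 (NM_009878) had levels of 12.29, 12.24, 12.27 and 12.31 in unstimulated and 12.22, 12.14, 12.16 and 12.08 in stimulated cells. Every pair was slightly lower with IL-18, at -0.07, -0.11, -0.11 and -0.23. The mean of -0.13 (SD 0.069, n = 4) did not pass the threshold (adjusted p = 0.0682), and its 95% interval, not adjusted for the number of probes, ran from -0.24 to -0.020. With these array weights applied, which favour replicates 2 and 3, the value was -0.11 and the adjusted p 0.0283.

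The 10-fold printing of 4 of the probes gives the error of a spot within an array. For Mdm2 A_51_P201346 the SD over the 10 spots of an array was 0.030 to 0.033, against an SD of 0.31 between arrays. For Cdkn1a the spot SD was 0.026 to 0.032 and the array SD 0.17. For Cdkn1b A_51_P169173 the spot SD reached 0.082, still below the array SD of 0.22, and for Trp53 A_52_P491849 it was 0.019 to 0.038 against 0.097. No spot of these probes was flagged or saturated. The SD between arrays, which also holds labelling and hybridization error, was larger than the spot SD in each of the 4 probes, and the 10 spots were averaged and counted once.

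**Figure D3:**
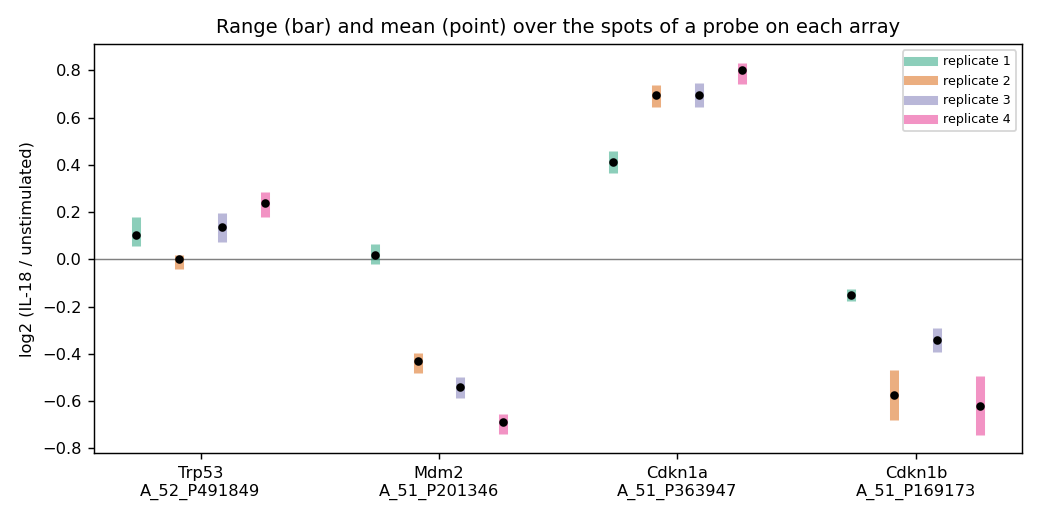
Range (bar) and mean (point) of the log2 ratio over the 10 spots of each replicated probe, for each array. The bars are short beside the distances between arrays; for Mdm2 A_51_P201346 the spots of replicate 1 lie between -0.02 and 0.07 and those of replicate 4 between -0.74 and -0.66.

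The direction of several of these values depended on the loess step, which removes a trend of the ratio with brightness within each array. When the arrays were centred on their medians instead, the median log2 ratio of all tested probes moved from 0.02 to 0.43, and the share of calls that were higher moved from 53% to 98.8%. On that scale Cdkn1a was at 1.49, the Trp53 probes at 1.16 and 0.70, the Cdkn2c probes at 0.90 and 0.79, Mdm2 at 0.83 (A_52_P469842) and 0.25 (A_51_P201346), Cdkn2d at 0.81, and Cdkn1b at 0.74 (A_51_P146126) and -0.19 (A_51_P169173). The Mdm2 and Cdkn2d values turned from negative to positive. Relative to the shifted median, Mdm2 A_51_P201346 and Cdkn1b A_51_P169173 were still below it, and the others above it. The scanner software's own dye correction gave 55.6% of calls higher, and kept the direction and the call of all 6 called probes. Scale normalization between arrays left none of the 10 probes called by limma, and 3 of them at an unadjusted p under 0.05, against 7 as reported.

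**Figure D4:**
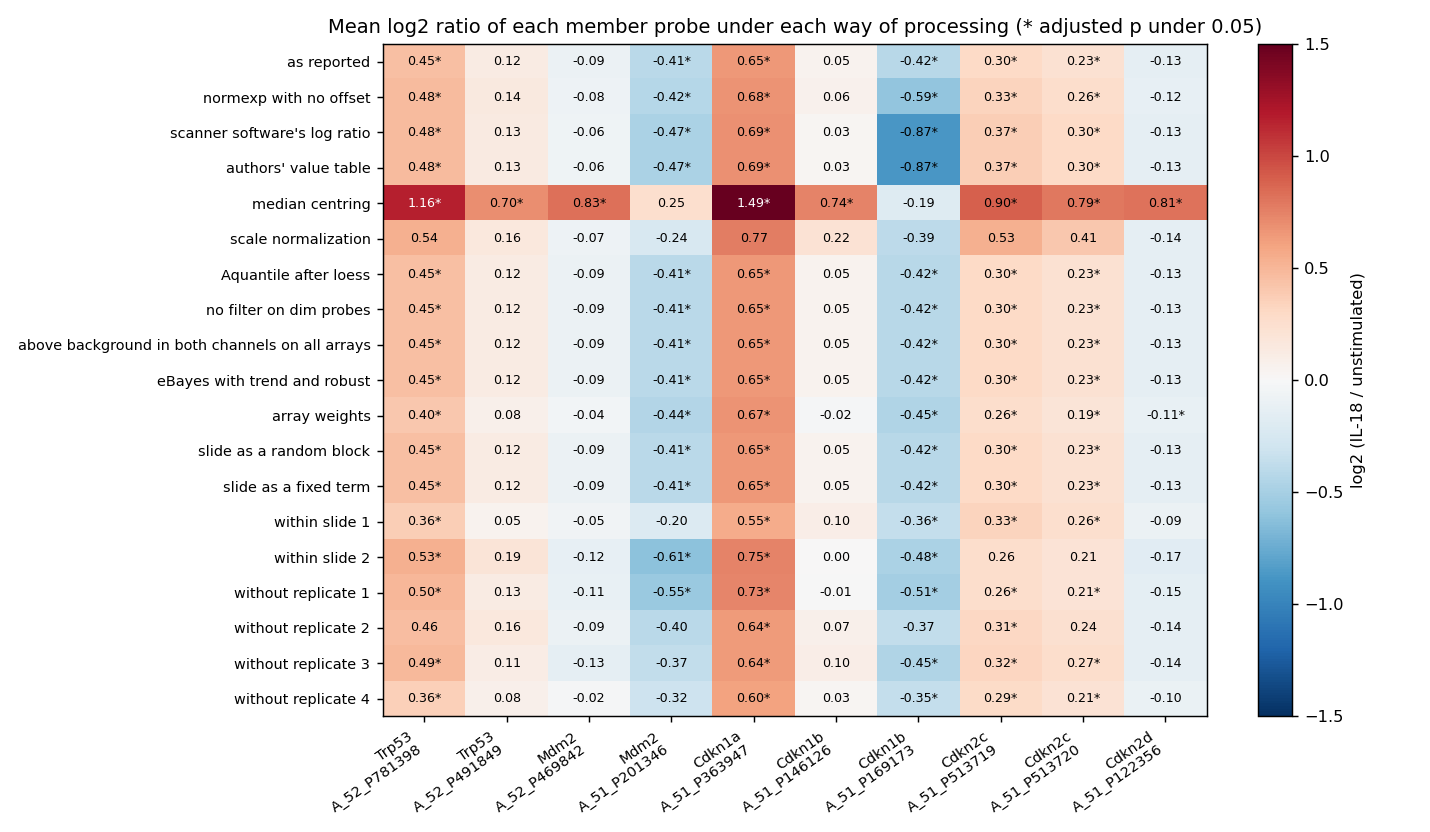
Mean log2 ratio of each tested probe (columns) under the reported processing and each alternative (rows), with red for higher and blue for lower in stimulated cells and a star where limma's adjusted p was under 0.05. Median centring moves every probe upward, Cdkn1a to 1.49, and scale normalization has no star.

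The 4 other CDK inhibitor genes were read at their brightest tested probe. Cdkn2a, which encodes the INK4 protein p16 and the Mdm2 antagonist ARF, rose by 0.23 (SD 0.14, n = 4, adjusted p = 0.0331), with ratios of 0.21, 0.38, 0.28 and 0.04, and lost its call without replicate 2 (0.17, adjusted p = 0.154) or replicate 3 (0.21, 0.133). Cdkn2b, which encodes p15, was at 0.18 (SD 0.17, adjusted p = 0.0877), the phosphatase gene Cdkn3 at 0.09 (SD 0.090, adjusted p = 0.186), and Cdkn1c, which encodes p57, at -0.02 (SD 0.024, adjusted p = 0.652). Of these genes, 1 of 4 was therefore called higher and none lower, beside 19.7% and 13.7% of all tested genes.

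Of 25 listed genes that act on p53, 23 were tested at their brightest probe, 4 were called higher and 6 lower, and their median was -0.10, against 0.035 over all 16970 tested genes, of which 19.7% were called higher and 13.7% lower. The largest change was in Ppp1r13l, which encodes the p53 inhibitor iASPP. Its ratios were -0.27, -0.90, -0.95 and -1.24, with a mean of -0.84 (SD 0.41, n = 4, adjusted p = 0.00791), but its second probe was at 0.11 and was not called. Ppp1r13b and Trp53bp2, which encode the related ASPP proteins that stimulate p53, were lower at -0.46 (SD 0.27, adjusted p = 0.0164) and -0.40 (SD 0.19, adjusted p = 0.0102), and for each both probes were called lower. The checkpoint kinase gene Chek2 was lower at -0.43 (SD 0.28, adjusted p = 0.0213), with its second probe at 0.01. Without replicate 2 these 4 genes lost their calls, with adjusted p-values of 0.0533 for Ppp1r13l, 0.0862 for Ppp1r13b, 0.0632 for Trp53bp2 and 0.0957 for Chek2. Their means in that setting were -0.82, -0.44, -0.39 and -0.43, and calls over all tested probes fell to 1349 higher and 845 lower. Without replicate 3 the calls of Ppp1r13b (0.0584) and Chek2 (0.0801) were lost. With median centring Ppp1r13b and Trp53bp2 turned to 0.13 and 0.39, below the shifted median, and neither was called. Of the genes called higher, Ppm1d (0.20) and Atm (0.18) each had a second probe called lower, at -0.19. Among genes not called, Pml had a second probe called lower (-0.34), while Sirt1 and Cop1 each had another called higher. Atr and Trp63 were not tested.

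Of 34 listed p53 targets, 33 were tested, 7 (21.2%) were called higher and 7 lower, beside 19.7% and 13.7% of all tested genes, and the median was 0.00037. Btg2, an antiproliferative gene, had ratios of 1.18, 1.26, 1.48 and 1.02 and rose by 1.23 (SD 0.19, n = 4, adjusted p = 6.63e-04). All 3 of its probes were called higher, but at sizes from 0.29 to 1.23. Fas, the death receptor, had ratios of 0.71, 1.32, 1.37 and 1.43 and rose by 1.21 (SD 0.33, n = 4, adjusted p = 0.00164). The other genes of this list named by the rule were small in comparison: Bax, which opens the mitochondrial outer membrane, fell by 0.39 (SD 0.098, adjusted p = 0.00381), and Pmaip1, which encodes the BH3 protein Noxa, rose by 0.30 (SD 0.13, adjusted p = 0.0110). With median centring Bax turned to 0.57 and was not called. Among targets not called at their brightest probe, Aen, Pidd1, Tigar and Sesn2 each had another probe called lower, and Ccng1 another called higher.

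**Figure D5:**
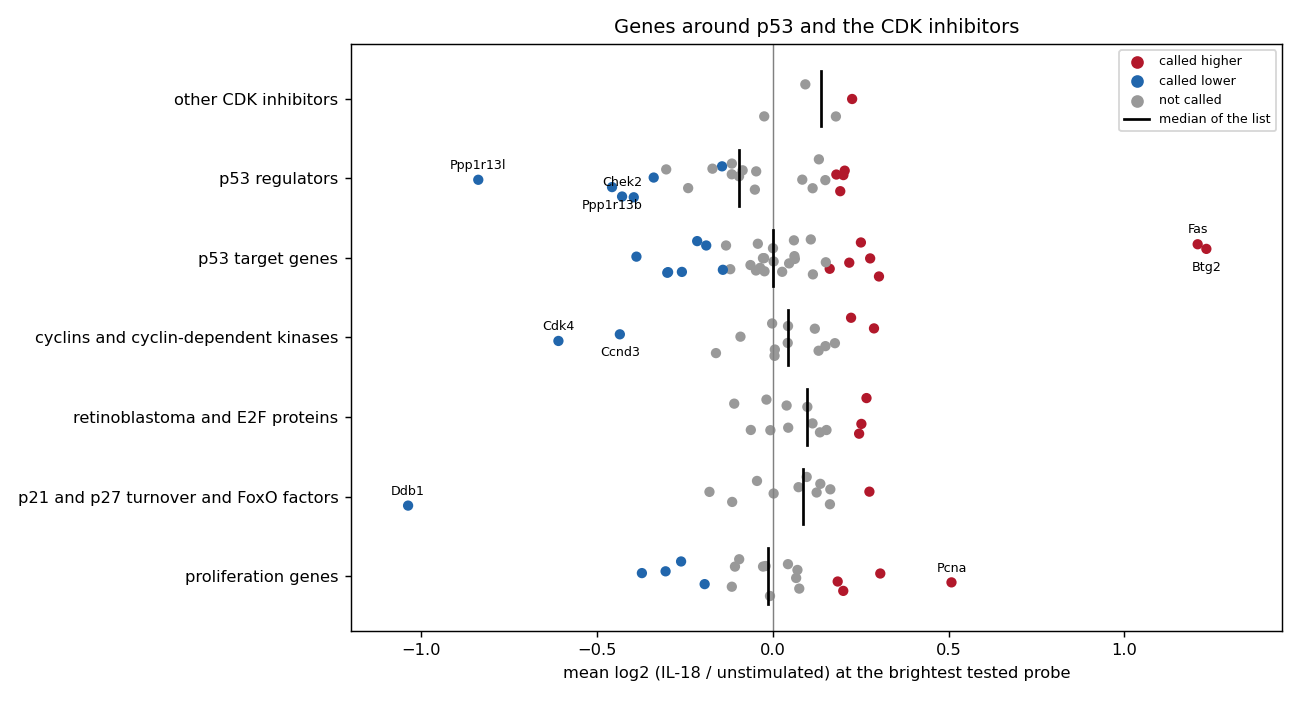
Mean log2 ratio at the brightest tested probe of each listed gene, by list, coloured by limma's call, with the median of each list as a bar. Btg2 (1.23) and Fas (1.21) lie far to the right and Ddb1 (-1.04) and Ppp1r13l (-0.84) far to the left, while the list medians lie between -0.10 and 0.14.

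Of 15 tested genes for cyclins, CDKs and the CDK-activating kinase, 2 (13.3%) were called higher and 2 lower, with a median of 0.04. Of all tested genes 19.7% were called higher and 13.7% lower. Ccnd2, which encodes cyclin D2, was not called at its brightest probe (0.0056), but 2 of its 3 probes were called lower. Cdk4, the kinase bound by p18 and p19, had ratios of -0.47, -0.55, -0.43 and -0.98 and fell by 0.61 (SD 0.25, n = 4, adjusted p = 0.00572), and Ccnd3, which encodes cyclin D3, fell by 0.44 (SD 0.18, adjusted p = 0.00698). With median centring both turned positive, to 0.22 and 0.55, and neither was called. Cdk6, the other INK4 target, rose by 0.22 at its brightest probe (SD 0.16, adjusted p = 0.0411). That call was lost without replicate 2 (adjusted p = 0.117), 3 (0.170) or 4 (0.0943). Only 1 of the 3 tested Cdk6 probes was called, and the lowest was at -0.08. Ccnh, a cyclin of the CDK-activating kinase, rose by 0.29 at its brightest probe (SD 0.054, adjusted p = 0.00554), but of its 4 probes 2 were called higher and 1 lower.

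Of 13 retinoblastoma and E2F genes, which act downstream of the CDKs, 3 (23.1%) were called higher at their brightest probe, beside 19.7% of all tested genes, and none of the 13 lower, with a median of 0.10. Rbl2 and E2f1, not called there, each had another probe called lower, at -0.34 and -0.47. The higher genes were Rbl1, which encodes the pocket protein p107, at 0.25 (SD 0.036, adjusted p = 0.00752), E2f5 at 0.25 (SD 0.073, adjusted p = 0.00987) and E2f3 at 0.27 (SD 0.21, adjusted p = 0.0435). Only 1 of 2 tested E2f5 probes was called, with the other at 0.10. Likewise only 1 of 3 tested E2f3 probes was called, with the lowest at 0.02. The call of E2f3 was lost when any 1 array was left out, at adjusted p-values from 0.0600 to 0.0860. The calls of Rbl1 (0.0616) and E2f5 (0.0683) were lost without replicate 2, and that of E2f5 also without replicate 3 (0.0514).

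Among 12 genes for the destruction of p21 and p27 and for FoxO factors, which activate Cdkn1b, 1 (8.33%) was called higher and 1 lower, beside 19.7% and 13.7% of all tested genes, with a median of 0.08. Ddb1, an adaptor of the CUL4 ligases that degrade p21, had ratios of -0.69, -0.89, -0.89 and -1.69 and fell by 1.04 (SD 0.45, n = 4, adjusted p = 0.00539). With median centring it was at -0.29 and was not called. Cks1b, the cofactor of Skp2 in p27 destruction, rose by 0.27 (SD 0.13, adjusted p = 0.0156), and its call was lost without replicate 2 (adjusted p = 0.0745). Rbx1, not called at its brightest probe, had another probe called higher, and its highest probe was at 0.59. Cul4a, likewise not called, had another probe called lower, at -0.43.

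Of 18 tested proliferation genes, 4 (22.2%) were called higher and 4 lower, beside 19.7% and 13.7% of all tested genes, with a median of -0.01. Pcna, the sliding clamp of replication that p21 also binds, had ratios of 0.61, 0.61, 0.45 and 0.36 and rose by 0.51 (SD 0.12, n = 4, adjusted p = 0.00236), and the survivin gene Birc5 rose by 0.31 (SD 0.091, adjusted p = 0.00694). The topoisomerase gene Top2a fell by 0.37 (SD 0.25, adjusted p = 0.0250) and the replicative helicase gene Mcm2 by 0.31 (SD 0.21, adjusted p = 0.0288). Both lost their calls without replicate 2 (adjusted p = 0.106 and 0.107) or replicate 3 (0.0863 and 0.0885). With median centring Mcm2 turned to 0.48 and was not called. Within the first slide alone the calls of Cdk6, Chek2, Top2a and Mcm2 were lost, and within the second those of Cdkn2a, Cks1b, Birc5, E2f5 and Rbl1; E2f3 lost its call within each. With the log ratio of the scanner software the sizes were larger for Ppp1r13l (-1.59), Chek2 (-0.91), Top2a (-0.88), Fas (2.12) and Cdkn2a (0.43), in the reported direction. The probes of Chek2 and Top2a were dim, with a mean log2 brightness of 7.68 and 7.50, below that of Cdkn1b A_51_P169173 (7.78). With median centring 86 listed genes were called higher and 1 lower. Over all lists, 22 of 117 tested genes (18.8%) were called higher and 20 (17.1%) lower, beside 19.7% and 13.7% of all tested genes.

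The genes whose 4 log2 ratios lay nearest to those of each member's brightest tested probe were found by Euclidean distance on the log2 scale among 16930 genes with values on all 4 arrays. Nearest to Cdkn1a were Rps13 (distance 0.0814) and Ear3 (0.107), which shared its smallest rise in replicate 1. Nearest to Trp53 A_52_P781398 were Sall4 (0.108) and Prkce (0.110), with their highest ratio in replicate 4. Nearest to Mdm2 A_52_P469842 were Dcaf7 (0.0431) and Ikbke (0.0474), and to Cdkn1b A_51_P146126 Nup155 (0.0505) and Phf13 (0.0588). Nearest to Cdkn2c A_51_P513719 were Mrpl17 (0.0253) and Srf (0.0400), and to Cdkn2d Rasa3 (0.0223) and Csrnp2 (0.0239). The distances are given as a description, over 4 arrays only.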

How the data were processed

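The deposited scanner files hold spot intensities of both dyes, read by the authors with Agilent Feature Extraction 9.1 per the submitters' processing notes. Mean spot and median local background intensities in Cy3 and Cy5, uncorrected in the deposited files, were the starting point. The log10 ratio of Cy5 over Cy3 in the same deposited files, and the series' deposited table of log10 ratios, which differed from it by at most 0.00496, were used only as alternatives. The deposited direction is Cy5 (IL-18) over Cy3.

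Background was corrected by normexp (offset 50) over all spots and log2 ratios were normalized by loess within arrays, with control and outlier spots at weight 0. The spots of each probe were then averaged. For levels and marker sums only, mean brightness was also quantile-normalized between arrays (Aquantile) before this averaging. Testing required values on 3 or more arrays and, in 1 dye, a signal the software marked as well above background on 3 or more arrays, for a share of 0.5 or more of a probe's spots. Each mean ratio was tested against 0 with limma 3.58.1 in R 4.3.3 (lmFit, eBayes, two-sided), and p-values were adjusted by Benjamini-Hochberg across the 24104 tested probes, with calls made under 0.05. All adjusted p-values come from limma. As each ratio pairs the 2 cultures of a replicate, the test is paired. The number of arrays, 4, limits the precision. The fit was also run on simulated data with known changes. The simulated dye trend was taken from the same loess fit, so that run could not test the choice of loess.

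A gene outside the 6 was read at its brightest tested probe. Named were all 6 genes at every probe, Nfkbia, Tnfaip3, the other 4 CDK inhibitors, up to 4 called genes per list by size of log2 ratio, and the 2 nearest genes of each member. The members and lists were chosen with earlier results of these data known. Symbols were updated through RefSeq accessions for 22951 probes. Promoter windows came from RefSeq (GRCm38.p6), in which 6 of 6 genes matched; the array files name no genome build. Alternatives changed the background correction, dye normalization, filter, array weights, variance moderation, slide handling, replicates and choice of probe.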

Additional observations from a re-analysis of the deposited data

Results flagged for a closer look

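Of 38 sets of 4 log2 ratios examined, 2 held an array far from the other 3 by Dixon's criterion for 4 values, which compares the gap to the nearest array with the whole range, and chance alone gives about 1 in 20. In Cdkn2b, which encodes the INK4 inhibitor p15, replicate 4 was at -0.08 against 0.27, 0.24 and 0.29 in replicates 1, 2 and 3, a gap of 0.863 of the range. Without replicate 4 its mean was 0.26 with a limma adjusted p of 0.00819, against 0.0877 with all 4 arrays. Because that array was picked out from these same values, the smaller p is not a test of a rise in Cdkn2b. In Fas, replicate 1 was at 0.71 against 1.32, 1.37 and 1.43, a gap of 0.846 of the range, and all 4 values were above 0.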

How the results depend on the processing

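Over 18 alternatives for each of the 10 tested probes of the 6 genes, 156 of 180 pairs kept the reported direction and side of the threshold. These pairs are not separate checks. Aquantile leaves every ratio and adjusted p as reported, and the filter changes alter only the adjusted p. The deposited table nearly repeats the scanner software's log ratio. A probe that was not called counts as kept where it stayed uncalled in the same direction. Cdkn1a lost its call only with scale normalization between arrays (0.77, adjusted p = 0.192). Scale normalization left 0 calls by limma among all tested probes in either direction, 0 among the members' probes and 0 among listed genes; at an unadjusted p under 0.05 it left 5873 tested and 3 member probes, against 11334 and 7 as reported, and the cause was not tested. Median centring gave 13970 tested probes higher and 176 lower, 8 and 0 member probes, and 86 and 1 listed genes. It reversed Mdm2 (0.83 at A_52_P469842 and 0.25 at A_51_P201346), Cdkn2d (0.81), Cdk4 (0.22), Ccnd3 (0.55), Ppp1r13b (0.13), Trp53bp2 (0.39), Bax (0.57), Mcm2 (0.48) and Cdkn1c (0.075). Of these reversed values, only Mdm2 A_52_P469842 (adjusted p = 0.0152) and Cdkn2d (0.0188) were called. Mdm2 A_51_P201346, Cdk4, Ppp1r13b, Trp53bp2 and Cdkn1c stayed below the shifted median of 0.43. Cdkn1b A_51_P146126, not called, changed sign with array weights (-0.023) and when replicate 1 was left out (leaving out 1 array gave -0.0078 to 0.104). Array weights gave 6730 tested probes higher and 6093 lower and 38 listed genes higher. The first slide alone gave 2365 and 1947 tested probes, 1 member probe lower and 14 listed genes higher. The second slide alone gave 2029 tested probes higher, 2 member probes higher, and 6 and 12 listed genes. The mean of a gene's probes gave 14 listed genes higher. Leaving out 1 array gave 1349 to 4579 tested probes higher and 845 to 5044 lower, 2 to 4 and 0 to 2 member probes, and 7 to 24 and 5 to 26 listed genes; the lowest counts were without replicate 2. No paired analysis was possible beyond the reported one, because each log2 ratio already is the difference within 1 pair. Dim probes such as Cdkn1b A_51_P169173 and those of Chek2 and Top2a limit the size that can be read.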
